A study of Mus musculus with 6 samples.

Results

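The NF-kB family was followed in activated CD8 T cells through 10 genes: the 5 subunit genes Nfkb1, Nfkb2, Rel, Rela and Relb, the 4 IkB inhibitor genes Nfkbia, Nfkbib, Nfkbid and Nfkbie, and Tnfaip3. They were taken by name, and all 10 were found among the 25654 gene identifiers that carry values. All 10 were above the filter on low values, a mean of 1 CPM (read counts scaled to one common library total). Aged CD8 T cells, isolated with a CD8 T cell kit, came from the spleens of female wild type C57BL/6 mice of around 65 weeks, and Young cells from mice of 6 weeks of the same sex, genotype and strain. Cells of both ages had been stimulated for 2 days on antibody to the T cell receptor beta chain at 3 µg/ml and to CD28 at 1 µg/ml with interleukin 2 at 10 ng/ml. They were then kept in interleukin 2 for 5 days, so that RNA was taken after 7 days, without antibody on the plate in the last stretch. There were 3 libraries per age, named as biological replicates. Whether the libraries of an age stem from separate mice is not stated, so p-values measure the spread between these libraries.

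NF-kB is a set of dimeric transcription factors that IkB proteins hold in the cytoplasm. When the T cell receptor and CD28 are engaged, signals through PKC theta, BCL10 and MALT1 activate the IKK kinases, which mark IkB for destruction and free the dimers to enter the nucleus. In T cells the freed dimers drive genes of growth, survival and cytokine production. Several of the genes they drive encode their own inhibitors, Nfkbia and Tnfaip3 among them, which closes a negative feedback loop.

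Nfkbia was the single member that passed the test. It fell to 49.3% of its level in Young cells, while the 5 subunits and the other inhibitors did not pass. As Nfkbia is a classic target of the factors it restrains, its promoter is shown with those of a subunit and of a second inhibitor. The sequences are RefSeq windows of GRCm38.p6 from 250 bases before to 50 after a gene's start, read 5′ to 3′ on the gene's strand. Capitals mark matches to the kappaB consensus on either strand. The Nfkbia window lies at chr12:55492598-55492897 (minus strand), that of Nfkb2 at chr19:46304487-46304786 (plus strand) and that of Nfkbib at chr7:28766595-28766894 (minus strand).
Nfkbia: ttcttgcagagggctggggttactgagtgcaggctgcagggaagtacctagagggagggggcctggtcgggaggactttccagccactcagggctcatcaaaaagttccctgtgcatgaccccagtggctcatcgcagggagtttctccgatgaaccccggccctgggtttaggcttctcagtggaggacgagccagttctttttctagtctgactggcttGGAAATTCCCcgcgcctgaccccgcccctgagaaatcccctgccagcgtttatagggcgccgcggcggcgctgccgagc
Nfkb2: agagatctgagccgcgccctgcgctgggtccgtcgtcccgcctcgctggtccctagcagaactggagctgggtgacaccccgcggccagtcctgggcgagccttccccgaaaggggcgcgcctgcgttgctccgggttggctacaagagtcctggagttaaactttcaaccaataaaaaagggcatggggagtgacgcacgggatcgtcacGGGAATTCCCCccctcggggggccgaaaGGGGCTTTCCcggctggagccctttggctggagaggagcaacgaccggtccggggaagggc
Nfkbib: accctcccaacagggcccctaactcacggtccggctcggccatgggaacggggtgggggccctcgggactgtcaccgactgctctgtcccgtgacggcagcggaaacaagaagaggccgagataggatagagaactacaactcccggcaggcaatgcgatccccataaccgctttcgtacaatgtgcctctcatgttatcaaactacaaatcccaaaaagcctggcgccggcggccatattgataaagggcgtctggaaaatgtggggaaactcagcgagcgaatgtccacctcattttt
The Nfkbia window holds 1 match, at bases -29 to -20 from the start. In the Nfkb2 window shown, 1 of 3 in the table and the one with the most matches, there are 3 matches, of which 2 overlap by all but 1 base. The other Nfkb2 windows hold 2 and 1, but they overlap, and the 1 match is the same site as 1 of the 2. No match to these letters lies in the window of Nfkbib. GENCODE, used for gene positions below, puts the start of this minus strand gene at 28767512, so the window lies inside that span. Bases before that start were not searched. The table held windows for 8 of the 10 genes, with none for Nfkb1 and Relb, and 6 of the 8 had a match in at least 1 of their windows (Nfkb2, Rel, Nfkbia, Nfkbid, Nfkbie and Tnfaip3). Counted by gene in the same way, 5.14% of all 27025 genes in the table had a match. Counted by window, 8 of the 13 windows of these genes and 4.51% of all 32851 windows held it. A site in overlapping windows, such as that of Nfkb2, was counted in each. A looser pattern, 3 G and 2 C with any 5 bases between them, on either strand, was in 50.8% of all windows. A match describes the sequence, and binding was not measured.

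The subunits are described first. Nfkb1 (chromosome 3, 135584655 to 135691547, GRCm38) encodes p105, which is processed to p50, the partner of RelA and c-Rel in the main dimers. Its level was 142, 158 and 136 CPM in Aged replicates 1 to 3, against 130, 159 and 156 CPM in Young replicates 1 to 3. The groups overlapped, and the means were 145 ± 11.4 CPM in Aged and 149 ± 15.8 CPM in Young cells (SD, n = 3 each). The log2 fold change, Aged minus Young on log2(CPM + 1), was -0.03 with a 95% interval of -0.22 to 0.17 (limma adjusted p = 0.855). The interval of Nfkb1 was the narrowest of the 10 members. Rela (chromosome 19, 5637483 to 5648130) encodes p65, the main activating subunit of the canonical route. It stood at 48.1, 52.1 and 42.8 CPM in Aged libraries and at 56.5, 55.6 and 50.3 CPM in Young libraries. Its groups overlapped, with a log2 fold change of -0.18 (interval -0.44 to 0.07, limma adjusted p = 0.291). Rel (chromosome 11, 23736847 to 23770970) encodes c-Rel, the subunit tied to lymphocyte activation. It was at 18.4, 20.7 and 19.8 CPM in Aged libraries, against 26.1, 28.4 and 20.0 CPM in Young libraries. Young replicate 3 lay within the Aged range, and the log2 fold change of -0.31 did not pass (interval -0.68 to 0.06, limma adjusted p = 0.215).

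Nfkb2 and Relb serve the noncanonical route, through which receptors such as CD27 and OX40 act. Nfkb2 (chromosome 19, 46304320 to 46312385) encodes p100, both the precursor of p52 and an inhibitor in its own right. Its values were 21.0, 17.6 and 19.8 CPM in Aged libraries and 25.6, 22.3 and 23.1 CPM in Young libraries. All Aged values were below all Young values, yet the log2 fold change of -0.27 did not pass (interval -0.63 to 0.09, limma adjusted p = 0.266). Exons of Nfkb2 overlap those of Psd and AC114539.1 on the other strand, which leaves its value uncertain if the counting ignored strand. Relb (chromosome 7, 19606217 to 19629438), the partner of p52, was the most uneven member. Aged replicates 1 to 3 had 7.68, 4.6 and 12.7 CPM, against 11.7, 10.4 and 10.4 CPM in Young libraries. These rest on 12 to 27 reads in Aged and 27 to 29 reads in Young libraries. Aged replicate 3 was above every Young library and Aged replicates 1 and 2 below all of them, so Aged cells had no common direction for Relb (log2 fold change -0.44, limma adjusted p = 0.297). The log2 fold change was -0.12 without Aged replicate 2 and -0.76 without Aged replicate 3, and neither passed.

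**Figure D1:**
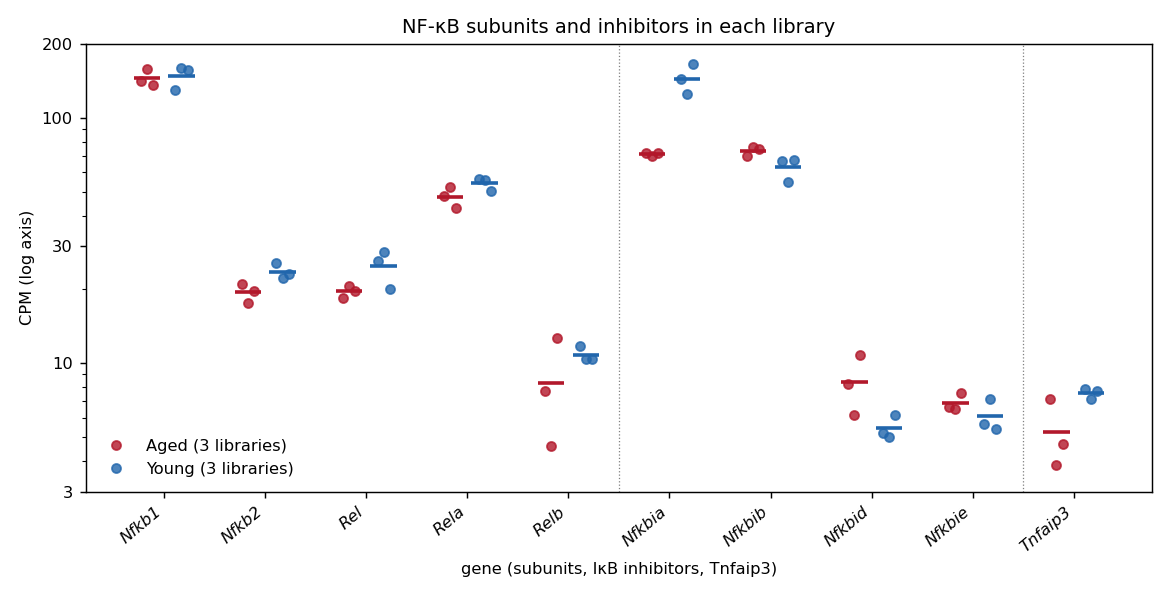
Level of each of the 10 genes in every library, in CPM on a log axis, with Aged libraries in red left of Young libraries in blue and a bar at each group mean (n = 3 each). The Aged values of Nfkbia lie between 70.2 and 72.0 CPM, below all Young values, and the subunits overlap or nearly meet.

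Of the inhibitors, Nfkbia (chromosome 12, 55489410 to 55492647, minus strand), which encodes IkB alpha, the fastest turning over and most NF-kB responsive of the IkB proteins, differed clearly. Its level was 71.7, 70.2 and 72.0 CPM in Aged replicates 1 to 3, against 143, 125 and 165 CPM in Young replicates 1 to 3. The highest Aged library was far below the lowest Young library, and the means were 71.3 ± 0.993 CPM in Aged and 145 ± 20.2 CPM in Young cells (SD, n = 3 each). Nfkbia was thus 2.03-fold lower in Aged cells, with a log2 fold change of -1.0 ± 0.10 (SE, interval -1.22 to -0.79, limma adjusted p = 6.66e-07). The values rest on 140 to 183 reads in Aged and 330 to 430 reads in Young libraries. Counting alone gives a spread of 7.94% of the mean at the Aged depth, more than the 1.39% seen, so the close Aged values do not measure the spread between cultures. No exon of Nfkbia overlaps another gene's, and no stretch of 31 bases from the last 300 of its coding transcripts was found in another gene. In such bulk RNA, fewer cells that express a gene and less of its RNA per cell cannot be told apart. Among the 1313 genes called lower, 391 had a larger fall than Nfkbia.

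The other inhibitors pointed the opposite way without passing. Nfkbib (chromosome 7, 28758251 to 28767512) encodes IkB beta, a slower inhibitor that is not part of the rapid feedback. It was at 69.7, 75.9 and 74.4 CPM in Aged libraries and at 66.5, 54.6 and 67.2 CPM in Young libraries. The groups did not overlap, with a log2 fold change of 0.23 (interval -0.01 to 0.46, limma adjusted p = 0.144). Its exons overlap those of Sirt2 and Ccer2 on the other strand, so its value too is uncertain if strand was ignored. Nfkbid (chromosome 7, 30421732 to 30428746), which encodes the nuclear IkB-NS that works with p50 on chromatin, had 8.19, 6.13 and 10.8 CPM in Aged libraries. Young libraries had 5.22, 5.03 and 6.15 CPM, so that Aged replicate 2 fell within the Young range. Its log2 fold change of 0.51 came with an interval of -0.09 to 1.11 (limma adjusted p = 0.201). Nfkbie (chromosome 17, 45555703 to 45563169) encodes IkB epsilon, an inhibitor of c-Rel and RelA dimers. It stood at 6.66, 6.52 and 7.53 CPM in Aged libraries, against 5.65, 7.18 and 5.38 CPM in Young libraries, with overlapping groups (log2 fold change 0.17, interval -0.41 to 0.75, limma adjusted p = 0.710).

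Tnfaip3 (chromosome 10, 19000910 to 19015657) encodes A20, the ubiquitin-editing enzyme that shuts off signals upstream of IKK and is itself driven by NF-kB. Its level was 7.17, 3.83 and 4.71 CPM in Aged libraries and 7.83, 7.18 and 7.68 CPM in Young libraries. All Aged values were below all Young values, by a margin of 0.01 CPM between Aged replicate 1 and Young replicate 2. The log2 fold change of -0.49 did not pass (interval -1.10 to 0.12, limma adjusted p = 0.232). The values rest on 10 to 14 reads in Aged and 18 to 20 reads in Young libraries, and the interval reaches as far down as the fall of Nfkbia.

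Read as a set, 1 of the 10 genes was called lower, where 12.5% of the 10511 genes tested were called lower. None of the 10 was called higher by limma, edgeR or DESeq2, and 0 had an unadjusted limma p under 0.05 in that direction, where 16.2% of genes tested were called higher. In either direction 1 of 10 stands beside 28.7% of genes tested. Groups did not overlap in 4 of 10 (Nfkb2, Nfkbia, Nfkbib and Tnfaip3), where 40.9% of genes tested did not overlap. The median log2 fold change was -0.23 over the 10 genes and 0.03 over all genes tested. Each of these counts was near or below that of genes in general.

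**Figure D2:**
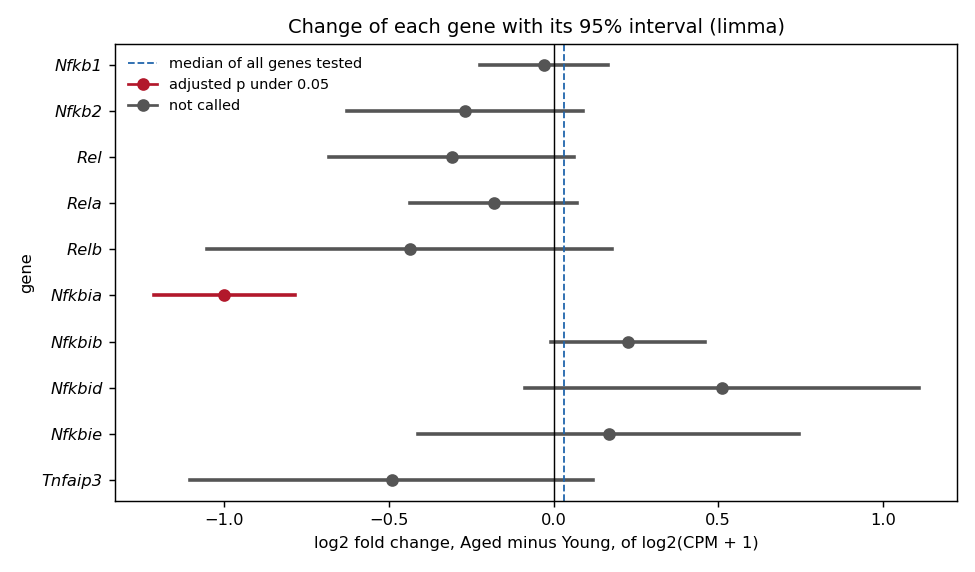
Log2 fold change, Aged minus Young, of each gene with its 95% interval from limma (n = 3 libraries per age), on log2(CPM + 1), with called genes in red and a dashed line at the median of all genes tested. Only the interval of Nfkbia lies wholly to one side of 0, from -1.22 to -0.79.

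Because each transcript gives its reads at the 3' end, CPM values do not grow with gene length, and levels are set side by side on that basis. Whether reads of each gene were counted equally well is not known, as the counting program, strand setting and annotation are not stated. Orders, shares and ratios between genes hold for the values as they were given. In Aged cells the order by mean was Nfkb1, Nfkbib, Nfkbia, Rela, Rel, Nfkb2, Nfkbid, Relb, Nfkbie and Tnfaip3. In that order Nfkbib and Nfkbia overlapped in range, as did Rel and Nfkb2, and the last 4 each overlapped their neighbour. In Young cells it was Nfkb1, Nfkbia, Nfkbib, Rela, Rel, Nfkb2, Relb, Tnfaip3, Nfkbie and Nfkbid. There Nfkbia overlapped Nfkb1 in range and lay above Nfkbib. Nfkbib and Rela overlapped too, as did Rel and Nfkb2, Tnfaip3 and Nfkbie, and Nfkbie and Nfkbid. The ratio of Nfkbia to Nfkbib CPM was 1.03, 0.924 and 0.968 in Aged libraries, against 2.16, 2.29 and 2.46 in Young libraries. Nfkbia supplied 44.6% ± 1.15 of the summed CPM of the 4 inhibitors in Aged and 65.9% ± 1.53 in Young cells (SD, n = 3 each). These last quantities were chosen after the values were seen and are given without a test.

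The make-up of the subunits was close between the ages. Nfkb1 gave 59.8, 62.4 and 58.9% of the summed subunit CPM in Aged libraries and 52.1, 57.7 and 60.1% in Young libraries (difference 3.74 percentage points, exact permutation p = 0.3, and 1.47 points without Young replicate 1). Rela followed with 19.8% ± 1.12 in Aged and 20.7% ± 1.66 in Young cells (exact p = 0.6). The shares were 8.17% ± 0.389 and 9.46% ± 1.53 for Rel, 8.13% ± 1.01 and 9.06% ± 1.10 for Nfkb2, and 3.52% ± 1.86 and 4.15% ± 0.478 for Relb, Aged before Young (exact p = 0.4, 0.4 and 0.7). The direction for Rela turned without Young replicate 1 (0.047 points) and that for Relb without Aged replicate 2 (0.22 points). Summed subunits came to 240 ± 11.3 CPM in Aged and 262 ± 13 CPM in Young cells.

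Inhibitor transcripts per subunit transcript, summed over the 4 inhibitors and the 5 subunits, were 0.659, 0.627 and 0.713 in Aged libraries and 0.882, 0.694 and 0.939 in Young libraries. Aged replicate 3 lay above Young replicate 2, and the difference of -0.172 had an exact permutation p of 0.2. Without Nfkbia the ratio turned, at 0.369 ± 0.0279 in Aged and 0.285 ± 0.0372 in Young cells (exact p = 0.1). With 3 libraries against 3 the smallest two-sided p is 0.1, and over the 6 quantities of this kind, the 5 shares and the ratio of all inhibitors, the Benjamini-Hochberg adjusted p was 0.7 for the shares of Rela and Relb and 0.6 for the other 4. Neither a shift of the subunits nor one of the summed ratio can therefore be shown by this test.

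**Figure D3:**
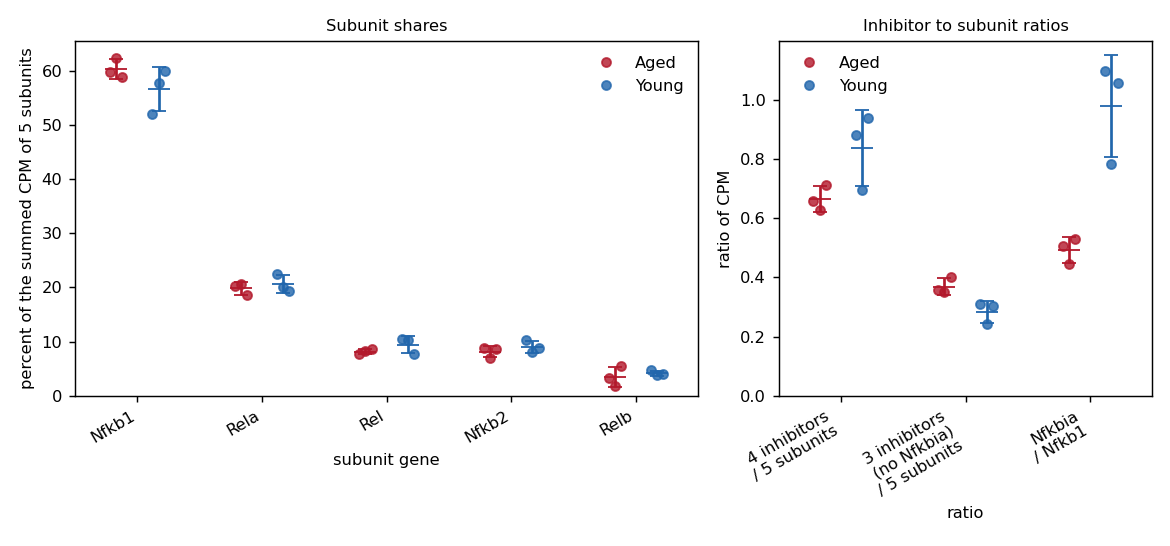
Left, percent of the summed CPM of the 5 subunits that each gave, and right, ratios of inhibitor to subunit CPM, with 1 point per library, a dash at the mean and a bar of 1 SD, Aged in red left of Young in blue (n = 3 each). Subunit shares overlap, while the Nfkbia to Nfkb1 ratio averages 0.493 in Aged and 0.981 in Young cells.

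The following 4 genes had profiles most like that of Nfkbia, by the root mean square difference of log2(CPM + 1) centred over the 6 libraries, among 7587 other genes with a mean level of 8 CPM or more. Btg2, an antiproliferative gene of quiescent cells, was nearest at 0.09 log2 units, at 46.6, 45.6 and 51.3 CPM in Aged libraries and 91.7, 94.8 and 112 CPM in Young libraries. Ikbke, which encodes the IKK-related kinase IKK epsilon, came next at 0.09 log2 units. It was at 6.66, 5.37 and 5.65 CPM in Aged libraries, against 13.9, 10.8 and 14.2 CPM in Young libraries. Unc93b1, which escorts nucleic-acid sensing Toll-like receptors, and Ypel5 followed at 0.09 and 0.10, where the median over all genes compared was 0.57. Exons of Ikbke overlap those of Gm28913 and Gm28914 on the other strand.

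**Figure D4:**
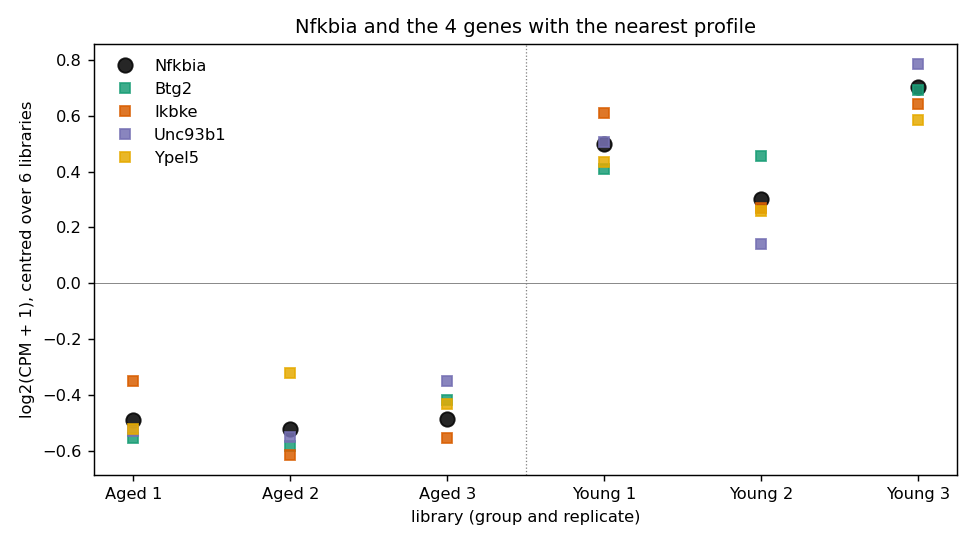
Log2(CPM + 1) of Nfkbia and the 4 genes nearest to it, each centred on its own mean over the 6 libraries, with Aged libraries left of Young libraries. All 5 genes are below 0 in the Aged and above 0 in the Young libraries. For the 4 genes this follows from their choice by likeness in these same libraries.

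Around the 10 genes, 150 other genes of the pathway were listed in 7 groups, 10 of them in more than 1 group, and 131 were tested. Of these 9 rose and 41 fell, which is 6.87% and 31.3% of them, beside 16.2% and 12.5% of all genes tested. That balance over all genes depended on the scaling, with 1701 genes higher and 1313 lower here, 1432 and 1549 under TMM, and 1443 and 1555 with edgeR. Under TMM 8 of the pathway genes were called higher and 49 lower. The count of genes that rose was 4, 5, 5 and 5 without Young replicate 1, Young replicate 2, Aged replicate 2 and Aged replicate 3. The lists were drawn up with earlier results of these libraries known, so their counts are a description.

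Upstream of IkB, the core kinase genes were mixed. Among 14 genes of IKK and its activating kinases 2 rose and 3 fell, or 14.3% and 21.4%. Of all genes tested, 16.2% rose and 12.5% fell. Chuk, which encodes IKK alpha, rose 1.53-fold, to 25.8 ± 4.36 CPM in Aged against 16.9 ± 2.44 CPM in Young cells (limma adjusted p = 0.0242). Ikbkb and Ikbkg, which encode IKK beta and NEMO, did not pass, at 29.7 ± 1.19 and 18.2 ± 2.32 CPM in Aged against 30.04 ± 5.39 and 17.9 ± 3.80 CPM in Young cells. Ikbke fell 2.20-fold (limma adjusted p = 0.00454), as did 2 of the 3 adaptors of the kinase TAK1, Tab1 2.62-fold and Tab2 1.22-fold (limma adjusted p = 0.00982 and 0.00768). The other adaptor, Tab3, named after its values were seen, rose 2.01-fold, to 7.63 ± 1.18 CPM in Aged against 3.80 ± 0.48 CPM in Young cells (limma adjusted p = 0.0376), a call lost without any library but Aged replicate 1. Tab1 lay at 3.26 ± 1.83 CPM in Aged against 8.55 ± 1.57 CPM in Young cells. Its call was lost without Young replicate 2 or Aged replicate 2 (log2 fold changes -1.13 and -0.92). That of Chuk was lost when Young replicate 1 or 3 or Aged replicate 3 was left out (0.61, 0.47 and 0.46) and with DESeq2. The count of genes that rose was then 0 without any one of those 3 libraries and 1 without Young or Aged replicate 2.

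On the route from the T cell receptor, 1 of 11 genes rose and 2 fell, in every one of the 17 alternatives run. With limma on log2(CPM + 1) that is 9.09% and 18.2%, beside 16.2% and 12.5% of all genes tested. Prkcq, which encodes the kinase PKC theta that acts below the receptor, fell 1.39-fold, to 54.8, 67.9 and 65.4 CPM in Aged libraries, against 85.6, 84.7 and 91.1 CPM in Young libraries (limma adjusted p = 0.00246). Ube2n, which encodes the ubiquitin-conjugating enzyme UBC13, rose 1.51-fold, to 184 ± 13.2 CPM in Aged against 122 ± 3.41 CPM in Young cells (limma adjusted p = 2.54e-05). Malt1 and Bcl10, which carry the signal on to IKK, did not pass (log2 fold changes -0.27 and 0.20).

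Among receptors that feed NF-kB, 7 of 16 tested genes fell, or 43.8%, beside 12.5% of all genes tested. None rose in limma, edgeR or DESeq2, and 0 had an unadjusted p under 0.05 in that direction, where 16.2% of all genes tested rose. Il18r1, a chain of the interleukin 18 receptor, fell 5.48-fold, to 33.8, 19.9 and 49.9 CPM in Aged libraries, against 190, 201 and 177 CPM in Young libraries (limma adjusted p = 2.83e-08). Its partner chain Il18rap fell 1.59-fold, to 44.4 ± 0.967 CPM in Aged against 70.7 ± 6.26 CPM in Young cells. Cd27, a costimulatory receptor that acts through the noncanonical route, fell 2.58-fold, to 18.5 ± 1.14 CPM in Aged against 47.7 ± 5.96 CPM in Young cells (limma adjusted p = 2.89e-06). Tnfrsf13b, which encodes TACI, fell 2.38-fold (limma adjusted p = 2.06e-05). The abundant Tnfrsf9, which encodes 4-1BB, did not pass, at 858 ± 27.0 CPM in Aged against 921 ± 55.5 CPM in Young cells.

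In the adaptor list 2 of 12 genes fell, Traf1, which encodes an adaptor of TNF receptors (1.36-fold lower, limma adjusted p = 0.00441), and Traf3ip3 (1.35-fold lower, limma adjusted p = 0.0242). None rose in limma, edgeR or DESeq2, and 1 had an unadjusted p under 0.05 in that direction. The share that fell was 16.7%, beside 12.5% of all genes tested, of which 16.2% rose. The call of Traf3ip3 was lost when Young replicate 1 or 2 or Aged replicate 1 was left out (log2 fold changes -0.34, -0.42 and -0.30) and with DESeq2. The count that fell was 1 without any one of those 3 libraries, and 1 rose without Aged replicate 1. Traf3, which restrains the noncanonical kinase NIK, did not pass (log2 fold change 0.49) but was called without Aged replicate 1 (0.76). Birc3, an NF-kB target that encodes cIAP2, did not pass (log2 fold change -0.50, limma adjusted p = 0.0739) but was called without Aged replicate 3 (-0.63), with edgeR (-0.59) and with TMM, RLE or voom.

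Of 21 tested genes of linear ubiquitin chains and negative regulators 1 rose and 3 fell. Their shares, 4.76% and 14.3%, stand beside 16.2% and 12.5% of all genes tested. N4bp1, which encodes a suppressor of NF-kB signalling, fell to 45.6 ± 0.835 CPM in Aged against 66.6 ± 14.3 CPM in Young cells, a call lost without Young replicate 1 (log2 fold change -0.36). Pdlim2, which encodes a nuclear ubiquitin ligase for p65, fell to 170 ± 11.1 CPM in Aged against 205 ± 14.7 CPM in Young cells. Tnip1, which encodes a partner of A20, fell to 54.9 ± 4.35 CPM in Aged against 70.7 ± 10.7 CPM in Young cells. The calls of Pdlim2 and Tnip1 each depended on single libraries, Young replicates 1 and 2 and Aged replicate 3 for Pdlim2 (log2 fold changes -0.24, -0.23 and -0.21), and Young replicates 2 and 3 and Aged replicates 1 and 2 for Tnip1 (-0.31, -0.27, -0.35 and -0.29). With the other alternatives counted too, the call of Tnip1 was lost in 5 of 17. Tax1bp1, another A20 partner, rose 1.15-fold, a call lost in 11 of the 17 alternatives. Among these were edgeR and DESeq2, and the fits without Young replicate 1 or 2 or Aged replicate 2 or 3 (0.19, 0.17, 0.16 and 0.14). Cyld, the deubiquitinase that opposes IKK activation, did not pass, at 124 ± 9.22 CPM in Aged against 122 ± 9.20 CPM in Young cells. The count that fell was 1 without Young replicate 1 or 2, and the count that rose was 0 without Young replicate 1 or 2 or Aged replicate 2 and 2 without Young replicate 3.

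Proteins related to the inhibitors also moved both ways, with 2 of 9 tested genes higher and 3 lower. As shares, 22.2% and 33.3% stand beside 16.2% and 12.5% of all genes tested. Nfkbil1, an IkB-like gene whose exons overlap those of Atp6v1g2 and Gm16181 on the other strand, fell 1.66-fold, to 17.6 ± 5.94 CPM in Aged against 29.3 ± 2.67 CPM in Young cells (limma adjusted p = 0.00853). Bcl3, which encodes a nuclear IkB that works with p50 and p52 and was named after its values were seen, fell to 67.2 ± 5.84 CPM in Aged against 82.7 ± 1.49 CPM in Young cells (limma adjusted p = 0.0356). Rps3, a ribosomal protein that also binds p65, fell 1.22-fold. Nfkbil1 and Rps3 kept their calls in all 17 alternatives. The count that fell was 2 to 4 without single libraries and 2 to 3 under the other alternatives. Where it was 2, Bcl3 was not called. Nkrf, which encodes a repressor of NF-kB target promoters, rose 2.03-fold, to 11.4 ± 1.64 CPM in Aged against 5.61 ± 2.40 CPM in Young cells (limma adjusted p = 0.0179). The call of Nkrf was lost without Young replicate 2 or Aged replicate 1 (log2 fold changes 0.72 and 0.87). Nkiras1, which binds IkB, rose to 5.52 ± 2.13 CPM in Aged against 1.94 ± 0.208 CPM in Young cells, and its call was lost without any library but Aged replicate 1 (log2 fold changes 0.92 to 1.14). Its exons overlap those of Rpl15 and Ube2e1 on the other strand. The count that rose was 0 without Young replicate 2 and 1 without Young replicate 1 or any Aged replicate, and DESeq2 called none.

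Of 56 tested genes on the list of NF-kB targets 24 fell, 3 rose and 29 did not pass. These are 42.9% and 5.36% of the list, beside 12.5% and 16.2% of all genes tested, with a median log2 fold change of -0.27. Vim, the intermediate filament vimentin, fell 1.70-fold, to 3104, 3355 and 2871 CPM in Aged libraries, against 5236, 5465 and 5113 CPM in Young libraries (limma adjusted p = 8.75e-09). Ltb, the lymphotoxin beta gene, fell 3.56-fold, to 31.8 ± 7.09 CPM in Aged against 114 ± 11.2 CPM in Young cells (limma adjusted p = 1.82e-08). The chemokine Ccl5 fell 6.95-fold and the cyclin Ccnd2 1.37-fold (limma adjusted p = 4.64e-07 and 1.62e-06). Exons of Ccnd2 overlap those of 9330179D12Rik and Gm43126 on the other strand. The 3 that rose, named after their values were seen, were Csf2, Myc and Sod2. Csf2 rests on 6 to 10 reads in Aged and 0 to 2 reads in Young libraries. The groups of Myc overlapped, with 30.7 CPM in Aged replicate 1 and 33.0 CPM in Young replicate 3. Sod2, the mitochondrial superoxide dismutase, was at 83.9 ± 3.44 CPM in Aged against 60.2 ± 5.35 CPM in Young cells. These genes answer to other factors too, and NF-kB activity itself was not measured.

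**Figure D5:**
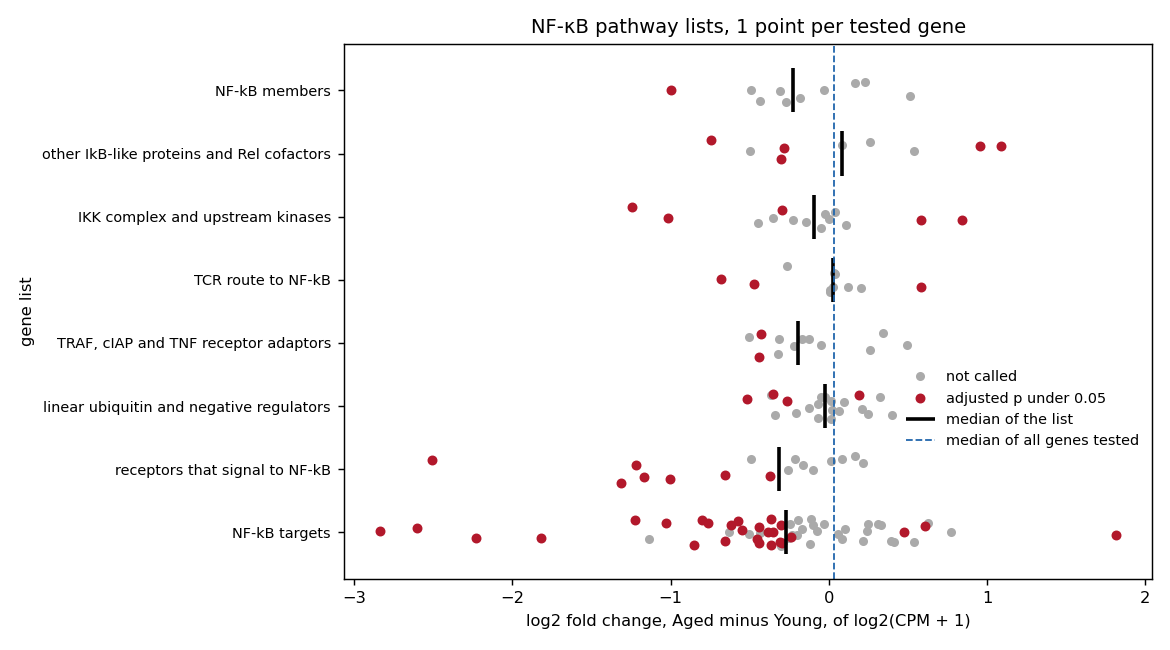
Log2 fold change, Aged minus Young, of every tested gene of the 10 genes (top row, labelled NF-kB members) and of the 7 lists around them, with called genes in red, a black bar at the median of a list and a dashed line at the median of all genes tested. Receptors (median -0.31) and targets (median -0.27) reach furthest to the lower side.

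The cells carried the markers of their label. Cd8a was at 244 to 344 CPM in Aged and 266 to 276 CPM in Young libraries, and Cd3e at 156 to 179 CPM in Aged and 223 to 231 CPM in Young libraries, while Cd4 had at most 0.384 CPM. The 9 markers of CD8 T cells summed to 3315 to 3615 CPM in Aged and 3733 to 3864 CPM in Young libraries. Of the 9, 5 fell (Cd8b1, Cd3d, Cd3e, Cd3g and Cd2) and 1 rose, the most abundant, Thy1. Cd8b1 was at 304 ± 27.2 CPM in Aged and 383 ± 21.7 CPM in Young cells, 1.26-fold lower (limma adjusted p = 0.00209), and the part of this shift in the Nfkbia difference was not tested. The sums of some other lists moved with Nfkbia. Markers of macrophages, monocytes and dendritic cells summed to 24.2 to 32.0 CPM in Aged and 48.0 to 64.3 CPM in Young libraries. Xcr1 was the most abundant, and 7 of 14 were at 0 in every library, Lyz2, Adgre1, C1qa and Flt3 among them. Of the 6 tested, 3 fell, and 2 lay higher in Aged cells without passing. These were Itgax and Csf1r, the latter with reads in Aged replicate 3 only. B cell markers summed to 0 to 2.82 CPM in Aged and 3.59 to 11.1 CPM in Young libraries, with 6 of 10 at 0 throughout, Ms4a1, Cd79a and Pax5 included. The 5 markers of CD4 and regulatory T cells summed to 65.9 to 90.9 CPM in Aged and 53.0 to 73.6 CPM in Young libraries, mostly Ikzf4. Within that list Ikzf4 rose while Zbtb7b fell, to 12.7 ± 3.24 CPM in Aged against 20.8 ± 3.40 CPM in Young cells (limma adjusted p = 0.0241). Those of natural killer cells reached 62.9 to 109 CPM in Aged and 76.5 to 77.6 CPM in Young libraries, mostly Fcer1g, with Ncr1 at most at 0.384 CPM. Neutrophil markers, nearly all Ly6g, reached 55.1 to 129 CPM in Aged and 82.6 to 102 CPM in Young libraries, with S100a8 at 0. Against Nfkbia moved 8 proliferation genes, all 8 of which rose, with sums of 3470 to 3511 CPM in Aged and 1782 to 2278 CPM in Young libraries. The part of cycling in the Nfkbia difference was not tested. Libraries held 1952552 to 2608553 reads in Aged and 2300219 to 2785915 reads in Young cells.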

How the data were processed

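Per the labels' protocols, RNA libraries were made with the QuantSeq 3'mRNA-Seq kit from 500 ng of total RNA. The build was GRCm38 (mm10), per the submitters' processing notes. For the aligner, counting program, strand setting and annotation no statement is given in the sources used here. CPM values were deposited by the authors, 1 file per library, for 25655 identifiers, of which 1 is blank throughout and was left out. All columns have the same total, and 100% of values are whole multiples of what 1 read is worth, within 0.001 reads, so whole reads were recovered. The count test of edgeR on them called 2998 genes. The file tied to Aged replicate 2 carries a header that names replicate 3. Its record was followed, and the values of these files are not the same.

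Symbols, positions and exon overlaps came from GENCODE M21 on GRCm38, and symbols were found for 25599 identifiers. The test was limma 3.58.1 with an intensity trend (R 4.3.3), two-sided, on log2(CPM + 1), with age as the sole term, leaving out genes whose mean was under 1 CPM. A gene was called where its Benjamini-Hochberg adjusted p was below 0.05 over all 10511 genes tested. Log2 fold changes understate changes of low genes, and folds are ratios of mean CPM. Only genes called are said to have risen or fallen. Alternatives were TMM, RLE and upper-quartile scaling, other filters and pseudocounts, recovered reads fitted with edgeR 4.0.16, DESeq2 1.42.0 or limma-voom, a block for the replicate number, and leaving out each library. The fits were tested on simulated data, in which changes were larger than many reported here and genes of the lowest levels were left unchanged. Intervals cover the spread between libraries. PCR reads without molecular identifiers are not independent molecules.

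The 10 genes and all lists were chosen with earlier results of these data known. Named genes are the 10, up to 4 genes with the smallest p per pathway list, the 4 genes nearest to the called gene with the largest fall, the CD8 T cell markers and the most abundant marker of each other list. Genes outside this rule are examples from their lists. Some genes that these rules name are not reported here.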

Additional observations from a re-analysis of the deposited data

How the results depend on the processing

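Nfkbia kept its direction and its call under all 17 alternatives, with log2 fold changes of -1.10 to -0.90 and adjusted p of 6.09e-13 to 3.13e-05, and 1 of the 10 genes was called in each of them. No other of the 10 genes was called in any alternative. Nfkb1 changed sign without single libraries (-0.12 to 0.023), and Relb ranged from -0.76 to -0.12. The difference in share ranged from 1.47 to 5.46 points for Nfkb1, -1.43 to -0.34 for Nfkb2 and -2.17 to -0.81 for Rel without single libraries. The share of Rela among subunits ranged from -1.55 to 0.047 percentage points and that of Relb from -1.62 to 0.22 when each library was left out, and Rela turned to 2.60 among Rel, Rela and Relb only. The inhibitor ratio turned to 0.0845 without Nfkbia, whose removal is the cause by construction. Of the 150 other pathway genes DESeq2 called 3 higher, and 4 to 10 were higher without single libraries. The marker genes Cd247 and Ly6g changed sign without single libraries (-0.061 to 0.027 and -0.45 to 0.15). For the rest the cause was not tested.

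Libraries with the same number did not deviate together (r = 0.0209, 0.00025 and 0.0028 across genes for replicates 1 to 3). A correlation over all genes tested can miss an effect on few genes, so a shared culture or preparation day remains unknown. With the replicate number as a block the log2 fold change of Nfkbia was -1.0, 9 pathway genes were called higher and 43 lower, and none of the 10 genes changed its call. Members under about 30 reads a library, Relb, Nfkbid, Nfkbie and Tnfaip3, are limited by depth, with counting errors of 19.0 to 26.7% of the mean in Young libraries.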
